A study of Mus musculus with 4 samples.

Results

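The sites described here are 4995 places in the mouse genome where a Pax6 peak met an Etv6 peak, where no peak of the remaining FLAG library lay, and where the Pax6 summit fell outside every called H3K4me2 peak. They were chosen by peak calls in all 4 lists of the series, on chromosomes 1 to 19, with an overlap of 1 bp counted as shared. They make up 30.8% of the 16233 Pax6 peaks on those chromosomes. Chromatin immunoprecipitation with sequencing was done on cultured neural progenitor-like cells (NS cells), which were grown out of differentiating 129/SvJ embryonic stem cells, taken at passages 15 to 18 and fixed with 1% formaldehyde for 10 min. The groups, with 1 library each, are FLAG-Pax6 in cells titled NS, FLAG-Etv6 in cells titled NS, a FLAG library titled N31_EGFP_OK whose tagged protein is not named (called EGFP_OK), and an H3K4me2 library titled N31_Oct4_EGFP at 0 hr. The FLAG libraries were precipitated with the M2 antibody. The labels do not say how the tagged proteins were expressed or whether NS and N31 are 1 line, so a site's missing H3K4me2 or EGFP_OK peak and a difference between the cells cannot be told apart.

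Pax6 is a transcription factor with a paired domain and a homeodomain, each of which can bind DNA, and it is needed for the development of the eye and for neurogenesis in the forebrain. Etv6 belongs to the ETS family, whose members bind short sequences around a GGAA core, and it is known mainly as a transcriptional repressor, studied most in blood cells. Dimethylation of histone H3 at lysine 4 (H3K4me2) marks promoters and enhancers that are active or poised.

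Because the members had to be called in the Pax6 and Etv6 lists, and not called in the others, their tags, scores and folds are descriptions. No test was run: each group held 1 library, and sites of 1 library are not replicates. Intervals in parentheses are exact 95% intervals (Clopper-Pearson for shares, order statistics for medians, Poisson for single counts). They cover counting error only, and neighbouring sites are not independent. Kept tags numbered 5288154 in the Pax6 library and between 21498324 and 24550365 in the others, since 81% of the Pax6 tags were redundant, against 16% to 39% elsewhere. A site can thus be missing from a list because it was under the calling limit, which is 10 tags for the weakest Pax6 peak and 17 to 19 tags in the other lists.

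The rule narrowed the Pax6 list in 3 steps. Of the 16233 Pax6 peaks, 11820 met a peak of the Etv6 list, and 9090 of these met no EGFP_OK peak. Of the 9090, 4995 had their summit outside H3K4me2, or 54.95% (53.9 to 55.98), and 4095 had it inside. Over all 16233 Pax6 peaks, which include these sites, 55.7% (54.9 to 56.5) were outside, close to the share of the 9090. The share was 26.9% (25.3 to 28.6) for Pax6 peaks in all FLAG lists and 77.5% (76.2 to 78.8) for those in no other FLAG list. The members are 55.2% (54.2 to 56.3) of all 9043 Pax6 peaks outside the mark. The rest of those peaks were mostly in no other FLAG list (2982), and 735 were in all FLAG lists. Nearly every member paired with 1 Etv6 peak. Only 8 members met 2 Etv6 peaks, and 22 members shared their Etv6 peak with another member, so the 4995 Pax6 peaks correspond to 4984 different Etv6 peaks.

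Most members lay kilobases away from the mark. The Pax6 summit was a median of 14815 bp from the nearest H3K4me2 peak (14006 to 15575), with quartiles of 5196 and 42159 bp. It was 24189 bp when only H3K4me2 peaks with a score of at least 100 were counted. Within 1 kb of an H3K4me2 peak lay 8.19% of the members (7.44 to 8.98), within 10 kb 40.1% (38.8 to 41.5), and beyond 100 kb 10.97% (10.1 to 11.9). The range ran from 1 bp to 1341897 bp, and 9 members were more than 1 Mb away. Sites of all FLAG lists outside the mark were nearer, with a median of 12016 bp (10638 to 13758) and 14.01% (11.6 to 16.7) within 1 kb. Pax6 peaks in no other FLAG list were farther, with a median of 17466 bp (16154 to 18766) and 5.20% (4.43 to 6.06) within 1 kb. These intervals cover counting error only, and the differences between the classes were not tested.

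**Figure D1:**
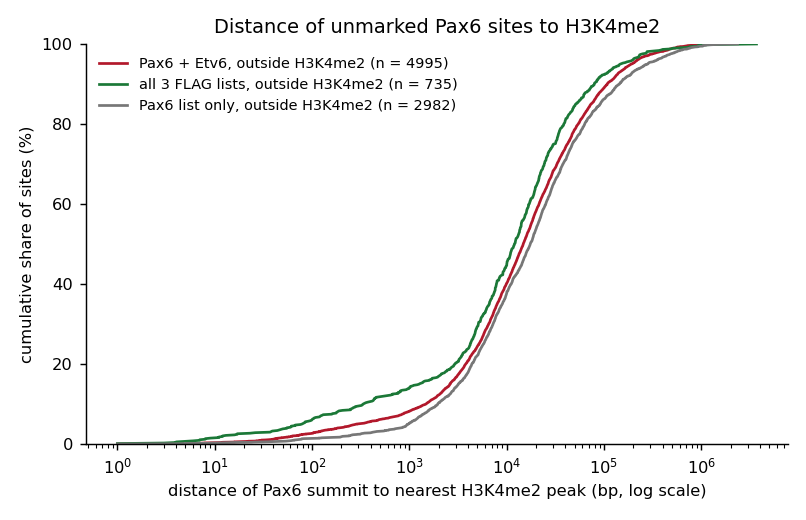
Cumulative share of sites (y axis, percent) by the distance from the Pax6 summit to the nearest H3K4me2 peak (x axis, bp, log scale), for the 4995 Pax6 and Etv6 sites outside H3K4me2, the 735 sites of all FLAG lists and the 2982 sites of the Pax6 list alone. The curve of the Pax6 and Etv6 sites runs between the other two, with a median of 14815 bp against 12016 and 17466 bp.

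Few members were border cases of the mark. The Pax6 peak itself reached into an H3K4me2 peak at 321 members, or 6.43% (5.76 to 7.14), although its summit did not. The Etv6 summit lay inside H3K4me2 at 102 members, or 2.04% (1.67 to 2.47), and 99 of these had the Pax6 summit within 1 kb of the mark. A gap between H3K4me2 peaks, with one within 1 kb on each side, held 31 members, or 0.621% (0.422 to 0.880). It held 29 of the 735 sites of all FLAG lists, or 3.95% (2.66 to 5.62), and 21 of the 2982 sites of Pax6 alone, or 0.704% (0.436 to 1.07). The H3K4me2 peaks nearest to the 409 members within 1 kb were small ones. Their median width was 1031 bp, with 50 tags and a score of 85.6, whereas all 48520 H3K4me2 peaks on these chromosomes had medians of 1638 bp, 122 tags and a score of 173. Small nearest peaks were not limited to these members. Beyond 50 kb the nearest H3K4me2 peaks had medians of 1208 bp, 62 tags and a score of 123. The score is the authors' p-value as −log10, multiplied by 10.

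The members nearest to the edge of the mark were on chromosome 7 from 35912093 to 35912722, 1 bp from the mark, with 11 Pax6 tags (5.49 to 19.7) and 78 Etv6 tags (61.7 to 97.3), and on chromosome 3 from 50028348 to 50029069, 3 bp from it, with 16 and 74 tags in Pax6 and Etv6. Just inside, 1 bp from the edge, were a shared site on chromosome 10 (85888193 to 85889476) with 49 Pax6 and 202 Etv6 tags and one on chromosome 6 (48790602 to 48792170) with 37 and 124 tags in Pax6 and Etv6. All coordinates are of build mm9 and count from 1. The members were not assigned to genes, and their sequences were not read, because no genome or annotation of that build was used here.

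Members far from the mark had somewhat higher Pax6 folds and fewer Etv6 tags than those near it. The authors' fold enrichment is the summit over the local background of the same library. Its Pax6 median was 10.6 (10.3 to 10.9) in members up to 1 kb from H3K4me2 and 10.1 (9.82 to 10.3) in the 810 members at 1 to 5 kb. It was 10.9 (10.7 to 11.2) in the 1688 at 5 to 20 kb, 11.3 (11.1 to 11.7) in the 1022 at 20 to 50 kb and 11.6 (11.3 to 11.9) in the 1066 beyond 50 kb. The Etv6 fold followed the same order from 1 kb on, with medians of 6.53 (6.34 to 6.73), 6.90 (6.79 to 7.06), 7.08 (6.92 to 7.27) and 7.24 (7.07 to 7.37). Up to 1 kb it was 6.99 (6.69 to 7.21), an interval that overlapped with that beyond 50 kb. Etv6 tags per peak had medians of 73, 77, 67, 61 and 62 from the nearest to the farthest members, and Pax6 tags 22, 22, 21, 20 and 20. The distance to the nearest EGFP_OK peak had medians of 20082, 15719, 17518, 27444 and 56737 bp in the same order, so it was highest in the farthest members. Across members, Spearman's rho with the distance to the mark was 0.15 for the Pax6 fold and 0.096 for the Etv6 fold (n = 4995 sites of the same libraries), which is weak.

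The Pax6 and Etv6 summits nearly coincided at the members. Their distance had a median of 70 bp (68 to 73) and quartiles of 32 and 134 bp. It was within 50 bp at 1898 members (36.6% to 39.4%), within 100 bp at 63.98% (62.6 to 65.3) and within 200 bp at 85.99% (84.99 to 86.9). Over all Pax6 peaks with an Etv6 peak, 60.6% had summits within 100 bp, a background that the members are part of. Inside H3K4me2 the median was 80 bp (77 to 83) and the share within 100 bp 57.9% (56.4 to 59.4). Sites of all FLAG lists outside the mark had 66 bp (58 to 74) and 65.0% (61.5 to 68.5). The Etv6 summit lay at the higher coordinate in 50.8% of members (49.4 to 52.2), and 13 pairs of summits shared the same base. Sites were not oriented by strand or sequence, so that share says nothing about the order of Pax6 and Etv6 within a site.

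**Figure D2:**
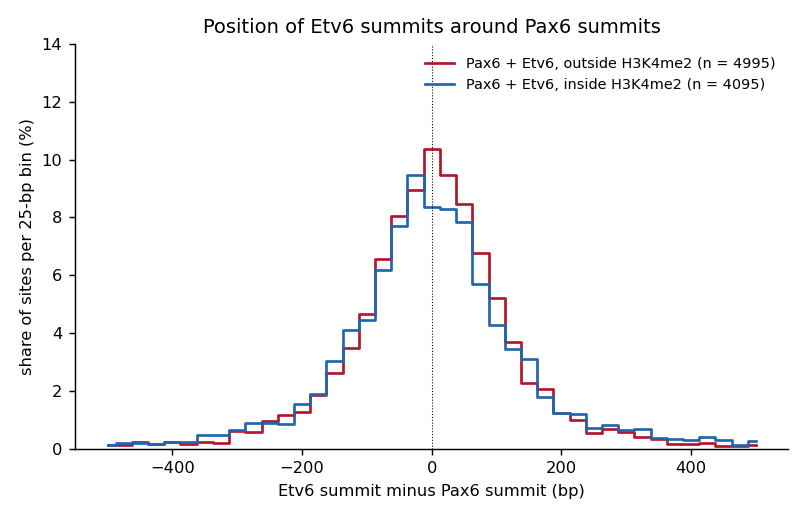
Share of sites per 25-bp bin (y axis, percent) by the position of the Etv6 summit relative to the Pax6 summit (x axis, bp), for the 4995 sites outside H3K4me2 and the 4095 inside it. Both curves are centred on 0, and more of the sites outside the mark lie near 0, with 63.98% against 57.9% within 100 bp.

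Peak width moved with this difference, and the sites were split by it after the values were seen. Etv6 peaks at members had a median width of 1193 bp (1182 to 1202), against 1348 bp (1329 to 1364) at the shared sites inside the mark. Among sites with an Etv6 peak up to 1 kb wide, 66.2% (63.3 to 68.9) of members and 62.8% (58.6 to 66.9) of marked sites had summits within 100 bp. For widths over 1 and up to 1.5 kb the shares were 65.6% (63.8 to 67.4) of members and 59.3% (57.1 to 61.4) of marked sites. Above 1.5 kb they were 57.7% (54.7 to 60.6) of members and 54.3% (51.8 to 56.8) of marked sites. The members' share was higher in each of the 3 width classes. The middle class held the most sites, 2787 members and 2023 marked sites, so its intervals are the narrowest. The differences were not tested.

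Summits lay closest where the fold was high. In the 10% of members with the highest Etv6 fold, 81.4% (77.7 to 84.7) had summits within 100 bp, at a median of 49 bp, and in the lowest 10% of members 41.3% (36.9 to 45.7), at 124 bp. Ranked by Pax6 fold, the shares were 76.6% (72.6 to 80.2) and 45.7% (41.3 to 50.2). Ranked by Pax6 score, the difference was smaller, with 72.0% (67.8 to 75.9) at the top and 55.7% (51.2 to 60.1) at the bottom. The shared sites inside the mark had the same order, with 79.3% and 32.5% at the top and bottom by Etv6 fold. The median Etv6 width was 1240 bp in the members at the top by Etv6 fold and 1234 bp in those at the bottom. It was 1172 and 1440 bp by Pax6 fold, and 1444 and 1102 bp by Pax6 score. The median Pax6 width at the top and bottom was 1020 and 1061 bp by Etv6 fold. By Pax6 fold it was 977.5 and 1244 bp, and by Pax6 score 1290.5 and 822 bp. Whether width bears on the summit distance was not tested. A small group was far apart: 44 members, or 0.881% (0.641 to 1.18), had summits more than 1 kb from each other. The most distant pair lay on chromosome 4 (135698827 to 135700100), with summits 4165 bp apart, 34 Pax6 tags and an Etv6 peak of 368 tags, and it was picked out after its value was seen.

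None of the members was among the 20 highest peaks of either list. They held 20 of the 100 highest-scoring Pax6 peaks and 351 of the first 1000, and 13 of the 100 and 245 of the 1000 highest Etv6 peaks. Of the whole lists, all chromosomes included, they were 30.01% in Pax6 and 16.1% in Etv6, so their share was below this among the first 100 and above it among the first 1000. A member had a median of 21 Pax6 tags (20 to 21; quartiles 15 and 29; range 10 to 247) and 67 Etv6 tags (66 to 68; quartiles 47 and 97; range 20 to 520). The median Pax6 fold was 10.9 (10.8 to 11.1) at members, against 10.4 (10.3 to 10.5) at shared sites inside the mark and 10.6 (10.5 to 10.6) at Pax6-only sites outside it. The median was also 10.9 (10.5 to 11.3) at sites of all FLAG lists outside the mark. A Pax6 fold of at least 15 was found at 559 members, or 11.2% (10.3 to 12.1), against 9.17% of all Pax6 peaks. An Etv6 fold of at least 10 was found at 572 members, or 11.5% (10.6 to 12.4), against 7.27% of all Etv6 peaks. Among shared sites inside the mark the Pax6 share was 8.33% (7.50 to 9.22) and the Etv6 share 13.8% (12.8 to 14.9). Among sites of all FLAG lists outside the mark these shares were 16.7% (14.1 to 19.6) and 15.4% (12.8 to 18.2), both above those of the members. Being called in the other list already favours strong peaks, so nothing is read from these shares. Both folds were that high at 164 members, or 3.28% (2.81 to 3.82). Their summits were a median of 40 bp apart, with 85.98% (79.7 to 90.9) within 100 bp. These values were not computed for marked sites or for all Pax6 peaks with an Etv6 peak, so they are not compared. Close summits at high fold were not particular to the members. In the 10% with the highest Etv6 fold, 81.4% of members and 79.3% of marked sites had summits within 100 bp.

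Between members and marked sites, median tags differed in the Etv6 list, and median folds differed more in the Pax6 list than in the Etv6 list. Pax6 tags had the same median, 21, in members and in shared sites inside H3K4me2, and 26.9% of each class had at most 15 Pax6 tags. Etv6 tags had a median of 67 (66 to 68) at members and 85 (83 to 87) inside the mark, and a score of at least 100 was reached by 63.2% (61.8 to 64.5) and 73.2% (71.8 to 74.5) of their Etv6 peaks. The Etv6 fold had a median of 6.98 (6.89 to 7.04) at members and 7.10 (7.00 to 7.19) inside the mark. This difference was smaller than that of the Pax6 fold given above and went the other way, and neither was tested. The median Pax6 to Etv6 tag ratio was 0.312 (0.308 to 0.317) at members and 0.266 (0.262 to 0.270) inside the mark. At sites of all FLAG lists outside the mark it was 0.333 (0.318 to 0.348), so the higher ratio was not particular to the members. The libraries' kept tags had a ratio of 0.220, which 79.7% (78.5 to 80.8) of members exceeded. So did 66.8% (65.4 to 68.3) of marked sites and 82.9% (79.9 to 85.5) of the sites of all FLAG lists outside the mark. A site with fewer than 10 Pax6 tags could not enter any of these classes. Per kb of peak the ratios were 0.382 (0.378 to 0.385) at members and 0.350 (0.346 to 0.354) at marked sites, so the order stayed and the gap narrowed. Within each of the 3 classes of Etv6 width the members' ratio was also the higher one, for example 0.304 (0.299 to 0.309) against 0.276 (0.270 to 0.281) for peaks over 1 and up to 1.5 kb.

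**Figure D3:**
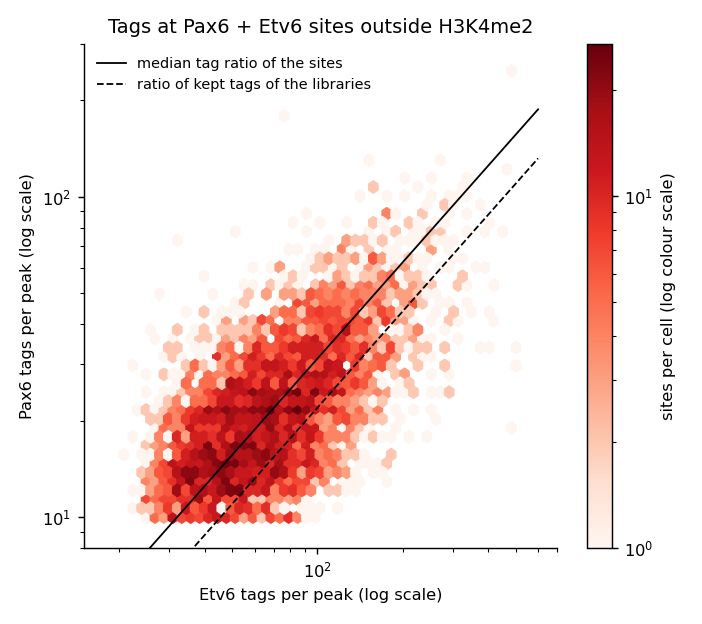
Pax6 tags per peak (y axis, log scale) against Etv6 tags per peak (x axis, log scale) for the 4995 sites outside H3K4me2, coloured by the number of sites per hexagonal cell. The solid line is the sites' median ratio, 0.312, and lies above the dashed line, the ratio of the libraries' kept tags, 0.220.

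Tag counts of the paired peaks moved together across members, with a Spearman's rho of 0.59, against 0.65 at marked sites and 0.63 at sites of all FLAG lists outside the mark. For the folds it was 0.37, 0.36 and 0.48 in that order. These values describe sites of the same libraries, share peak width and local background, and carry no test.

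How often a shared site lay outside the mark depended on the measure it was ranked by. Over the 9090 shared sites ranked by Etv6 score, 41.9% (38.7 to 45.2) of the highest 10% and 65.3% (62.2 to 68.4) of the lowest 10% were members. Ranked by Pax6 fold, the order was the opposite, with 62.0% (58.8 to 65.2) at the top and 45.7% (42.4 to 48.96) at the bottom. By Pax6 score the shares were 55.2% (51.9 to 58.5) at the top and 49.7% (46.4 to 53.03) at the bottom. By Etv6 fold they were 49.6% (46.3 to 52.9) and 53.2% (49.9 to 56.5). In both of these rankings the share was highest between the ends. It was 58.0% (54.7 to 61.2) in group 4 of 10 by Pax6 score and 58.4% (55.1 to 61.6) in group 7 by Etv6 fold. High-ranking shared sites were thus less often unmarked by one measure and more often by another.

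**Figure D4:**
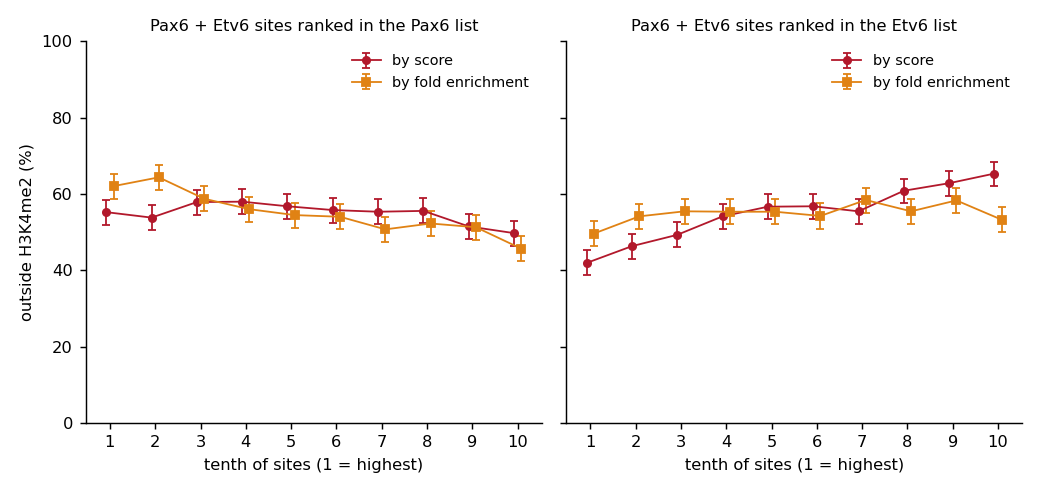
Share of the shared Pax6 and Etv6 sites that lay outside H3K4me2 (y axis, percent, with exact 95% intervals) in 10 equal groups of 909 sites ranked by score or fold (x axis, 1 is the highest) in the Pax6 list (left) and the Etv6 list (right). The share goes up towards the lowest Etv6 scores, to 65.3%, and down towards the lowest Pax6 folds, to 45.7%.

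The members were spread over all 19 autosomes, with 105 on chromosome 19 and 502 on chromosome 2. The share of shared sites outside the mark was lowest on chromosome 11, at 50.1% (45.7 to 54.5), and highest on chromosome 18, at 62.6% (57.5 to 67.4), with chromosome 12 next at 62.4% (57.7 to 66.9). Chromosomes 1, 2 and 3, with the most shared sites, had 51.8%, 56.3% and 53.1%. Chromosome 18 held 4.78% (4.21 to 5.41) of the members and 3.99% (3.69 to 4.30) of all Pax6 peaks. Chromosome 14 held 2.42% (2.01 to 2.89) of the members and 2.95% (2.70 to 3.22) of all Pax6 peaks. The members are part of all Pax6 peaks, so the paired shares are not independent, and their differences were not tested.

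Many members lay near another member. The nearest other member was a median of 60670 bp away, and 45.4% (44.04 to 46.8) had one within 50 kb, against 39.8% (38.3 to 41.3) of the 4095 marked sites and 20.6% (19.2 to 22.1) of the 2982 Pax6-only sites, measured within each class. With scores of at least 100 in the Pax6 and Etv6 lists, which left 1286 members, it was 23.3%. These classes differ in size, and a longer list has closer neighbours, so the shares are not compared further. Joined at gaps of up to 50 kb, 1011 members fell into 278 runs of at least 3, and 2726 members stood alone. The longest run held 8 members over 138 kb on chromosome 17 (59437819 to 59575636). Marked sites of the same pair were farther off, at a median of 136275 bp (127474 to 143292) from a member, and 26.6% (25.4 to 27.8) of members had one within 50 kb. The nearest EGFP_OK peak was a median of 23505 bp (22367 to 24790) away, and it was within 1 kb at 1.24% (0.953 to 1.59) of members.

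The window of 100 kb on chromosome 9 from 68600001 to 68700000 held 6 members among 7 Pax6 and 7 Etv6 peaks, had no EGFP_OK or H3K4me2 peak, and was 1 of 2 windows with that many members. Its members started at 68624997, 68630052, 68638422, 68660456, 68682411 and 68697686. In that order they had 12, 10, 14, 58, 33 and 27 Pax6 tags, at folds of 12.4, 10.2, 7.81, 11.5, 12.98 and 14.1. Their Etv6 peaks had 83, 44, 104, 222, 75 and 58 tags, at folds of 8.21, 6.41, 5.65, 11.9, 5.53 and 4.59. The site with the most tags was the same in both lists, at 68660456, but the following pair had more Pax6 tags than the first 3 sites and fewer Etv6 tags than 2 of those. Their summits were 17 to 300 bp apart, and the nearest H3K4me2 peak was 439 to 512 kb away.

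The other such window, on chromosome 17 from 59500001 to 59600000, also held 6 members. It contained 8 Pax6, 8 Etv6, 4 EGFP_OK and 2 H3K4me2 peaks, and its members were 0.717 to 48.9 kb from H3K4me2, with a median of 13903 bp. They had 28 to 57 Pax6 tags and 80 to 116 Etv6 tags, so every one was above the medians of all members in both lists. Of the 7 windows with 5 members, the first by position lay on chromosome 1 (165500001 to 165600000), with 33 to 41 Pax6 tags and 46 to 150 Etv6 tags per member.

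**Figure D5:**
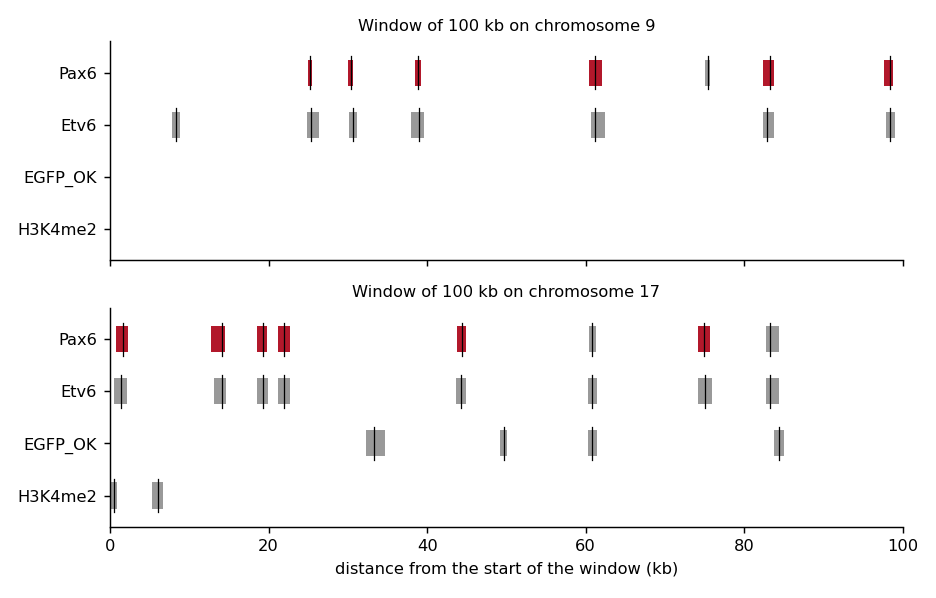
Peaks of the 4 lists (rows) in the windows with 6 members on chromosome 9 (top) and chromosome 17 (bottom), by distance from the window's start (x axis, kb). Red bars are the Pax6 peaks of the members, grey bars are all other peaks and black ticks are summits, and the chromosome 9 window shows no EGFP_OK or H3K4me2 peak.

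The members that ranked best in both lists had 47 to 99 Pax6 and 128 to 319 Etv6 tags, with summits 2 to 74 bp apart. The first lay on chromosome 3 (37992935 to 37994283), with 86 Pax6 tags (68.8 to 106) and 281 Etv6 tags (249 to 316), summits 11 bp apart and H3K4me2 16.5 kb away. The second lay on chromosome 2 (79893512 to 79895009), with 93 Pax6 tags at 16.1-fold and 295 Etv6 tags at 13.6-fold, and was 6.19 kb from the mark. A second site on chromosome 3, at 38026875 to 38028213, had 99 and 319 tags in Pax6 and Etv6 and was 50.4 kb from the mark. The site on chromosome 9 at 91062486 to 91063615, with 66 and 172 tags in Pax6 and Etv6, was 117 bp from the mark. The fifth, on chromosome 4 (150663010 to 150663574), had the highest fold of all members in both lists, 28.5 in Pax6 and 23.9 in Etv6. It rested on 47 Pax6 tags (34.5 to 62.5) and 128 Etv6 tags (107 to 152), its summits were 2 bp apart, and the nearest H3K4me2 peak was 206 kb away.

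Several sites with the next highest folds in 1 list ranked far lower in the other. After the site at 150663010, the highest Pax6 fold was 25.7, at 21586045 to 21586534 of chromosome 15. Folds of 25.2 followed at 144538752 to 144539964 of chromosome 4, 107688373 to 107689095 of chromosome 14 and 17104783 to 17105772 of chromosome 10. The chromosome 15 site rested on 22 Pax6 and 27 Etv6 tags, with an Etv6 fold of 9.18 and an Etv6 rank of 27269 by score, whereas the chromosome 4 site at 144538752 had 90 and 181 tags in Pax6 and Etv6 and ranks 33 and 210. The highest Etv6 folds after the first were 18.9 on chromosome 17 (66701528 to 66702045), 16.8 on chromosome 6 (120108832 to 120109808), 16.8 on chromosome 3 (40846185 to 40846638) and 16.8 on chromosome 14 (18290108 to 18291101). Their Pax6 tags numbered 13, 24, 10 and 20, and their Etv6 tags 104, 287, 77 and 85, in that order. The chromosome 3 site thus stood at the lowest count a Pax6 peak has, beside an Etv6 peak of rank 1878.

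The balance of the tags varied over a wide range between members. More Pax6 than Etv6 tags, despite the smaller Pax6 library, were found at 25 members on 13 chromosomes, or 0.501% (0.324 to 0.738), and at 7 of the 4095 marked sites, or 0.171% (0.0688 to 0.352). Such sites were not counted among the sites of all FLAG lists outside the mark. There the ratio reached 1.71, and its 95th percentile was 0.765, against 0.626 at members. High ratios are thus not read as particular to the members. Among members the highest ratios were 2.28 (1.73 to 3.02) on chromosome 15 (61051716 to 61055219; 173 Pax6 and 76 Etv6 tags), 2.24 (1.47 to 3.49) on chromosome 13 (10694669 to 10696312; 74 and 33) and 1.79 (1.10 to 2.95) on chromosome 16 (39052554 to 39053632; 50 and 28). The lowest were 0.0397 (0.0237 to 0.0628) on chromosome 3 (89223212 to 89223929; 19 Pax6 and 478 Etv6 tags), 0.0577 (0.0385 to 0.0834) on chromosome 18 (36000752 to 36001695; 30 and 520) and 0.0661 (0.0453 to 0.0936) on chromosome 11 (32124241 to 32125622; 34 and 514). The Etv6 peaks at the 3 lowest were wide ones, from 89221194 to 89226474, from 35996395 to 36002941 and from 32122077 to 32127154, so part of their tags lay outside the Pax6 peak.

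Some high ratios lay near each other and others did not, as seen after the values were known. On chromosome 15, 3 of the 25 members with more Pax6 than Etv6 tags lay within 1 window (90100001 to 90200000). They started at 90124323, 90147576 and 90162969 and had 34, 55 and 83 Pax6 tags against 29, 39 and 81 Etv6 tags, while the remaining member there, at 90195850, had 11 and 43. Around the highest ratio, in the 1 Mb on either side (60054715 to 62054715), there were 61 Pax6, 59 Etv6, 55 EGFP_OK and 53 H3K4me2 peaks. The 20 members there had a median of 42 Pax6 and 166.5 Etv6 tags, against 21 and 67 over all members, at lower median folds of 9.02 and 5.74, against 10.9 and 6.98. Their median tag ratio was 0.287, against 0.312 over all members. The widest member, on chromosome 15 from 61814252 to 61820092, lay in this stretch, with 247 Pax6 tags at 4.01-fold and 479 Etv6 tags at 3.63-fold. In this stretch the tags were thus above, and the folds below, the medians of all members in both the Pax6 and the Etv6 list.

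The members farthest from any H3K4me2 peak had few to moderate tags, and some had high folds. They lay on chromosome 3 (3804133 to 3804848), 1342 kb away with 15 Pax6 and 32 Etv6 tags, and on chromosome 2 (100239765 to 100240526), 1228 kb away with 11 and 27 tags. Next came chromosome 7 (68693201 to 68694031), 1157 kb away with 15 and 60 tags, and a neighbouring pair on chromosome 2, at 95340381 to 95341650 with 24 and 86 tags and at 95327790 to 95328557 with 14 and 77 tags, 1062 and 1049 kb away. In this order their Pax6 folds were 15.8, 9.33, 10.3, 14.6 and 8.61, and their Etv6 folds 8.09, 4.97, 6.28, 9.21 and 9.07. Of these, 2 Pax6 and 2 Etv6 folds were above the members' upper quartiles of 13.2 and 8.60. The lowest-scoring members had scores of 50.03 to 50.04, where the Pax6 list ends at 50. Their positions were 109215805 to 109216746 of chromosome 2, 62144901 to 62145668 of chromosome 1 and 12500725 to 12501445 of chromosome 4, with 15, 14 and 10 Pax6 tags beside 52, 31 and 34 Etv6 tags.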

How the data were processed

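Peaks were called by MACS 1.4.2 on each library separately, per the file headers, without a control file, at a p cutoff of 1e-05, taking the background from 10 kb around a site and keeping 1 tag per position. The submitters' processing notes also name CASAVA 1.8.1, BWA 0.6.2 and build mm9. Each list gives the count of tags per peak, not normalized, as deposited by the authors. It also gives, per the file headers, a score of 10 times the −log10 of p and the fold enrichment over the local background. Scores and folds are the authors' values and were used only within a list. No control library corrects the lists for accessibility, copy number or repeats.

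The members, the classes beside them and the naming rule were chosen with earlier results of these data known. Groups follow the sample titles. The named regions are the members best in both lists, highest in fold, extreme in tag ratio or distance to H3K4me2, next to its edge and lowest in score, and the densest windows of 100 kb. Overlaps, distances, medians and shares were computed in Python 3.11.15 (scipy 1.17.1, pandas 2.3.3, numpy 2.4.6) and drawn with matplotlib 3.10.9. The summit is the start plus the summit offset minus 1. The rule and the distances were tested on simulated lists. The planned motif and gene counts were not run, because no mm9 sequence or annotation was used here.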

Additional observations from a re-analysis of the deposited data

Results flagged for a closer look

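Chromosome X was outside the rule and is singled out because it held more sites of this kind than the 3 that a count of 0 allows, which is a low bar. There, 178 Pax6 peaks met an Etv6 and no EGFP_OK peak and had their summit outside H3K4me2. They are 87.7% (82.4 to 91.9) of the 203 shared sites on chromosome X, against 54.95% (53.9 to 55.98) on chromosomes 1 to 19 and at most 62.6% on any one of those. Of all 371 Pax6 peaks on chromosome X, 83.3% (79.1 to 86.9) were outside the mark, against 55.7% (54.9 to 56.5) on chromosomes 1 to 19. The higher share on chromosome X was thus not particular to the shared sites. The 178 sites had median folds of 11.7 in Pax6 and 7.65 in Etv6, summits 78.5 bp apart and a median of 53.3 kb to the nearest H3K4me2 peak. On chromosome Y and unplaced sequence, 4 more peaks met the rest of the rule.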

How the results depend on the processing

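Of 74 values under the alternatives, 51 stayed within 1.5 times the count or within the 95% interval of the value. Overlap by at least 50% of the shorter peak, the Etv6 summit inside the Pax6 peak and the addition of chromosome X moved none. Keeping Pax6 and Etv6 scores from 100 up moved all results, to 1286 members, 52.8% outside the mark, a summit distance of 62 bp, 16448 bp to H3K4me2, folds of 13.2 in Pax6 and 8.37 in Etv6, a tag ratio of 0.343 and 23.3% with another member within 50 kb. The share outside the mark was 51.4% with no base of the Pax6 peak in H3K4me2, 53.8% with both summits outside and 50.5% at 1 kb or more. The distance to the mark was 16772.5 bp in the first and 17334.5 bp in the last of these, where 43.9% had a member within 50 kb. It was 24189 bp with only H3K4me2 peaks of a score of at least 100, and the tag ratio was 0.382 per kb. After seeing the data, 2 alternatives were added. With the Etv6 list as long as the Pax6 list, 3532 members were left. Their values were 52.04% outside, 67 bp, folds of 11.3 and 7.73, a ratio of 0.280 and, in this shorter list, 37.7% within 50 kb. With EGFP_OK peaks of a score of at least 100 only, 51.7% were outside. The Pax6 depth limits which Etv6 sites could be members. No paired analysis was possible because each group held 1 library.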
